A study of Homo sapiens with 52 samples.

Results

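siNRP1#3, a small interfering RNA (siRNA) against neuropilin-1 (NRP1), was compared with the non-targeting siRNA (siNT) in MDA-MB-231 cells, using the 3 siNRP1#3 samples and the 3 siNT samples of this cell line out of 52 samples in all. MDA-MB-231 is an established human triple-negative breast cancer cell line of the claudin-low subtype. Cells of both groups received 20 nM siRNA by reverse transfection with a lipid reagent and were harvested after 72 hrs, without genetic modification or drug treatment. The groups therefore share the transfection and differ in the siRNA sequence, and each group holds 3 biological replicates per the study's methods. Other groups were used where a second measurement bears on the same genes. These were siNRP1#5 in MDA-MB-231, a second NRP1 siRNA that shares the siNT samples, shNRP1#3 against shNT, a lentiviral short hairpin under puromycin selection, and siNRP1#3 against siNT in SUM159PT and HS578T, both also claudin-low breast cancer lines. The hairpin carries the same number as the siRNA but another sequence.

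NRP1 is a cell surface co-receptor. It binds class 3 semaphorins and members of the VEGF family and works together with plexins, VEGF receptors and other receptor tyrosine kinases. Alternative transcripts end before the exon for the membrane anchor and give secreted, soluble forms that still bind ligand. An siRNA is loaded into an Argonaute protein, which cuts RNA that pairs along the whole guide strand and can also lower other RNAs that pair only with the guide's seed, bases 2 to 8 from its 5′ end, in the way of a microRNA.

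The siNRP1#3 site in NRP1 is shown first, because it fixes both which NRP1 transcripts can be cut and which seed the guide carries. It lies on chromosome 10 of GRCh38 at chr10:33185638-33185656, minus strand, in exon 15 of NRP1-206, within the coding sequence. The 19 bases of the site are in capitals, read 5′ to 3′ along the transcript, with 5 bases on each side.
siNRP1#3 site: attaaTAACCACATTTCACAAGAAgattg
Of the 14 annotated NRP1 transcripts, 4 held the whole site. They are the transmembrane forms NRP1-201, NRP1-206, NRP1-207 and NRP1-208. The guide strand pairs with this sequence, so its seed pairs with CACAAGA. A 3′ untranslated region (3′ UTR) with CACAAGAA, which adds an A after the seed match, has an 8mer match. This 8mer was present in 3.83% of the 19136 3′ UTRs searched, and a match of 7 or 8 bases in 18.6%. No mature human miRNA of the 2370 in the RefSeq table had the same seed.

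The 6 genes below were among the called genes with an 8mer that had the smallest adjusted p-values, and all 6 fell. Each line gives 28 bases of the 3′ UTR in the sense of the transcript, from the GENCODE annotation on GRCh38, with the seed match in capitals.
COX10 (chr17:14207271-14207298, plus strand): aattctggaaCACAAGAAgagaaattgc
NELFCD (chr20:58995022-58995049, plus strand): tcagttttctCACAAGAAcccagttagc
CTNNB1 (chr3:41239858-41239885, plus strand): gtgaagaatgCACAAGAAtggatcacaa
AURKA (chr20:56370030-56370057, minus strand): tagaacgctaCACAAGAAatatttgttt
GNAI2 (chr3:50258803-50258830, plus strand): aaggaaaaagCACAAGAAgcgtgagacg
APLN (chrX:129647704-129647731, minus strand): cccgttctctCACAAGAAtccgtccagt
The 6 sites share the 8 bases in capitals. Whether the guide binds at these sites was not measured.

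Total expected counts (read counts that RSEM divides among genes, with fractions) were between 31112927 and 49432014 per sample. No sample was a copy of another. Squared differences between replicate counts were 21.5 to 62.7 times what counting alone gives (chi-square per degree of freedom), with siNT replicate 3 farthest from the others of its group. Genes typical of HS578T and of SUM159PT, and nearly silent in the shNT samples of MDA-MB-231, added up to 0.0544 to 0.487% and 0.0819 to 0.368% of their level in those lines, and were highest in siNT replicate 3. Of 12 markers of other cell types, 5 passed the filter on low counts, and these were at most 1.75 CPM (counts relative to the library total, scaled by TMM for library composition). Of the markers that claudin-low cells lack, CLDN4 was at 129 to 204 CPM over the 6 samples and CLDN7 at 31.4 to 44.7 CPM, which goes against the label for those genes, while CLDN3 was at most 10.1 CPM and CDH1 at most 1.75 CPM.

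NRP1 fell in MDA-MB-231 at the gene level in counts, but not in TPM. Its expected counts amounted to 73.1, 81.1 and 97.1 CPM in the siNT samples and 46.5, 54.3 and 54.2 CPM in the siNRP1#3 samples. The groups did not overlap. The mean went from 83.7 ± 12.2 CPM to 51.6 ± 4.47 CPM (SD, n = 3 each), a log2 fold change of -0.70 with a standard error (SE) of 0.15 and an adjusted p of 0.00173 (edgeR quasi-likelihood test, Benjamini-Hochberg over the genes tested). On the TPM scale, which divides counts by transcript length, the gene was at 28.8 ± 3.02 TPM in siNT and 28.5 ± 3.36 TPM in siNRP1#3. The log2 ratio of these means was -0.016, so NRP1 showed no fall on this scale.

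The 2 classes of NRP1 transcripts differed from siNT in opposite directions. The 4 transmembrane transcripts, which hold the site, summed to 14.4, 14.9 and 18.2 TPM in siNT and 2.15, 3.09 and 2.77 TPM in siNRP1#3, which is 16.9% of the siNT mean. The 5 soluble transcripts, which do not hold it, summed to 8.47, 8.42 and 10.4 TPM in siNT and 21.3, 23.8 and 24.9 TPM in siNRP1#3, 2.56 times the siNT mean. In both classes all 3 siNRP1#3 samples lay outside the range of the siNT samples. The differences were -2.53 and 1.35 in log2(TPM + 0.1), each with p = 0.1 in an exact two-sided permutation test, the smallest value that 3 against 3 samples allow. The transmembrane share of NRP1 was 54.8 ± 3.49% in siNT and 9.35 ± 0.988% in siNRP1#3 (isoform percent, SD, n = 3).

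1 transcript carried most of each class. NRP1-206, the long transmembrane form, was at 12.0, 13.4 and 16.6 TPM in siNT and 0.81, 1.53 and 0.91 TPM in siNRP1#3, and it fell with a log2 fold change of -3.67 (SE 0.24, adjusted p = 2.04e-06) in an edgeR fit over 92506 transcripts, of which 4.06% were called. NRP1-204, a soluble form, was at 6.05, 6.15 and 8.67 TPM in siNT and 19.2, 21.8 and 22.3 TPM in siNRP1#3. Its groups did not overlap, yet its fitted log2 fold change of 1.62 (SE 0.55) had an adjusted p of 0.128. None of the other NRP1 transcripts tested passed the test, among them NRP1-207 and NRP1-208, which hold the site and were at 1.13 and 0.393 TPM on average in siNRP1#3. RSEM divides reads between transcripts that overlap along most of their length, so single-transcript values are estimates.

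**Figure D1:**
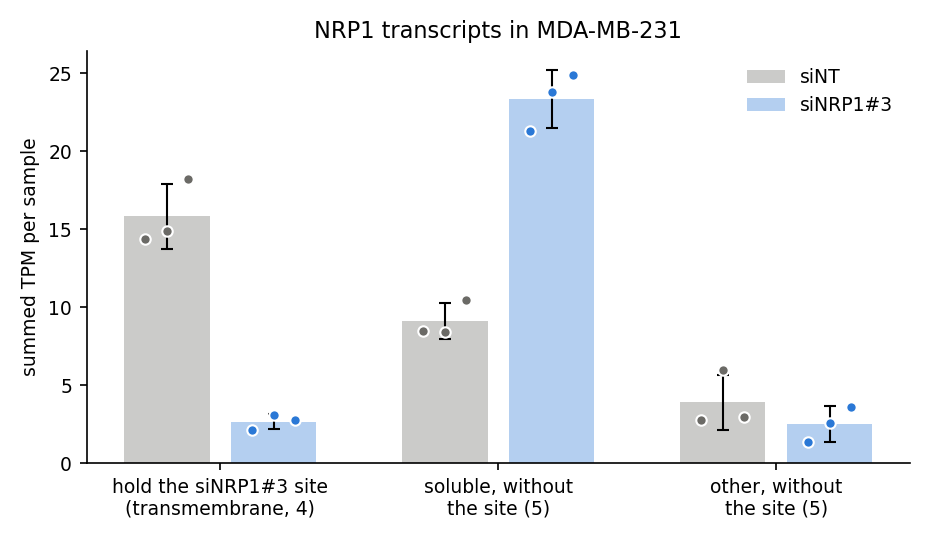
Summed TPM of NRP1 transcripts in each MDA-MB-231 sample, by transcript class. Bars are means, whiskers are SD (n = 3) and points are samples. The transmembrane class is at 2.15 to 3.09 TPM in siNRP1#3 and above 14 TPM in siNT, and the soluble class is higher in siNRP1#3 than in any siNT sample.

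Across the transcriptome, 18800 genes were tested and 4823 (25.7%) passed an adjusted p of 0.05, of which 2143 were higher (11.4%) and 2680 lower (14.3%) in siNRP1#3. Of these, 768 were more than 2-fold higher and 858 more than 2-fold lower. CPM values of the 2 groups did not overlap in 7630 genes (40.6%), 19.4% with siNRP1#3 higher and 21.2% with it lower. Without siNT replicate 2, 1395 genes were higher, and without siNRP1#3 replicate 1, 1331 were. Protein-coding genes were called lower more often than higher (16.9 and 10.4%), and long noncoding RNAs were called higher more often than lower (16.4 and 7.23%). In siNRP1#5 against the same siNT samples, 29.4% of genes were called, 14.4% higher and 14.9% lower.

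**Figure D2:**
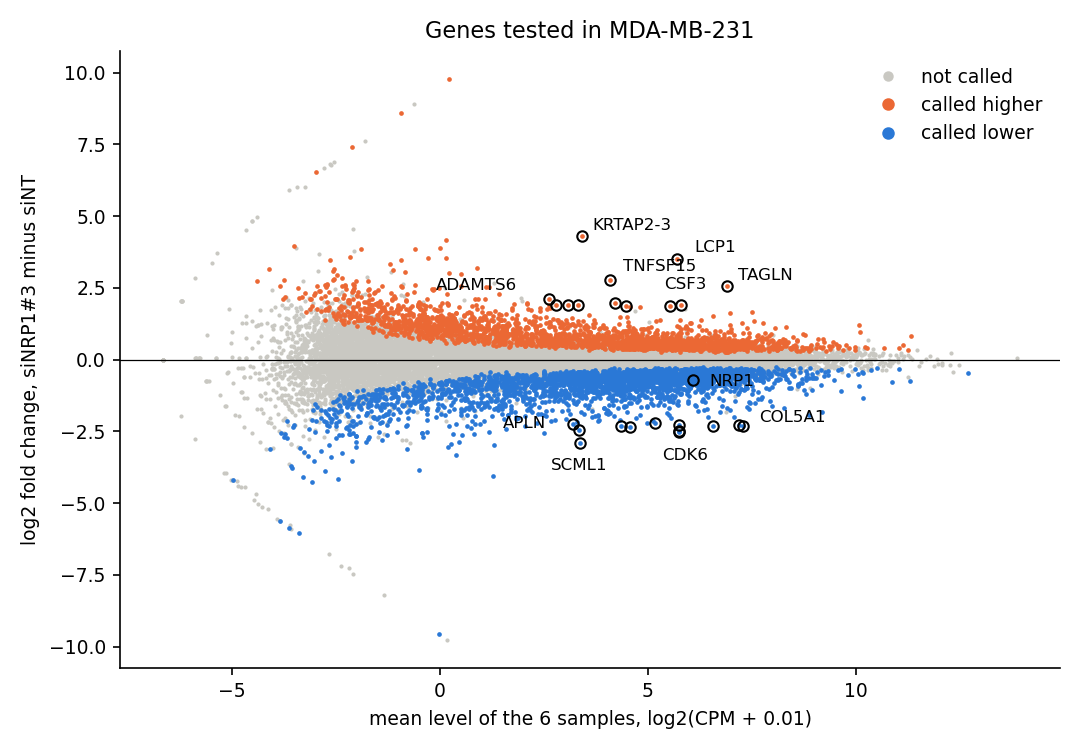
Log2 fold change (siNRP1#3 minus siNT) against mean level of the 6 samples for the 18800 genes tested. Orange and blue points passed an adjusted p of 0.05, and circles mark NRP1 and the 12 genes at each end among called genes with a mean of at least 5 CPM and no overlap of the groups. NRP1, at -0.70, lies well inside the range of the called genes.

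The 12 highest genes with at least 5 CPM included actin-binding proteins, secreted factors and phosphatases. KRTAP2-3, a hair keratin-associated protein, was at 0.990, 0.801 and 1.29 CPM in siNT and 29.3, 17.1 and 14.9 CPM in siNRP1#3 (log2 fold change 4.31, SE 0.28, adjusted p = 5.95e-09). KRTAP2 genes are near-identical copies, so that its reads may be shared with its neighbours. LCP1 (L-plastin), an actin-bundling protein mostly of blood cells, was at 6.52, 7.28 and 11.2 CPM in siNT and 81.7, 93.1 and 113 CPM in siNRP1#3, 11.5-fold higher on average (log2 fold change 3.52, SE 0.21, adjusted p = 4.16e-09). TAGLN (transgelin), a smooth muscle actin-binding protein and SRF target, rose 5.91-fold, from 28.2, 40.4 and 35.8 CPM to 226, 211 and 179.8 CPM. Genes at both ends were chosen for groups that do not overlap, so the separation of their values is not a result.

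TNFSF15, a cytokine of the TNF family, was at 4.59, 3.31 and 5.01 CPM in siNT and 27.3, 22.4 and 39.5 CPM in siNRP1#3 (log2 fold change 2.79, SE 0.47, adjusted p = 0.00053). Further genes at this end were the secreted protease ADAMTS6 (2.13), the lysosomal amino acid transporter SLC36A1 (1.98), the phosphatases DUSP2 (1.92) and PTPMT1 (1.87), the noncoding ZNF496-DT (1.89) and the autophagosome protein MAP1LC3A (1.87), given as log2 fold changes. CSF3, the granulocyte colony-stimulating factor, was at 32.4, 14.8 and 23.9 CPM in siNT and 125, 57.1 and 81.0 CPM in siNRP1#3 (1.89, SE 0.56, adjusted p = 0.0239). The immediate early factor EGR1 was at 6.68, 2.02 and 2.16 CPM in siNT and 17.9, 8.65 and 13.2 CPM in siNRP1#3 (1.89, SE 0.52, adjusted p = 0.0139). Both calls depended on single libraries, since the adjusted p of CSF3 was 0.0925, 0.063 and 0.103 and that of EGR1 0.0635, 0.057 and 0.0585 without siNT replicate 2, siNT replicate 3 and siNRP1#3 replicate 1 in turn.

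The 12 lowest genes included a cell cycle kinase, a collagen and a keratin. SCML1, a Polycomb-related protein, fell from 22.6, 17.2 and 14.9 CPM to 2.14, 2.79 and 2.37 CPM (log2 fold change -2.90, SE 0.24, adjusted p = 1.47e-07). CDK6, a kinase that drives entry into S phase together with D-type cyclins, fell from 122, 83.3 and 65.6 CPM to 14.5, 18.1 and 15.9 CPM (-2.48, SE 0.27, adjusted p = 4.36e-06). ARHGDIB fell from 161, 169 and 142 CPM to 34.2, 31.6 and 29.3 CPM (-2.31, SE 0.13, adjusted p = 4.16e-09). Groups without overlap were a condition of the choice here too.

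COL5A1, a chain of type V collagen, fell 4.94-fold, from 231, 291 and 253 CPM to 43.9, 55.7 and 57.1 CPM. KRT7 (keratin 7) fell 4.84-fold, from 223, 260 and 236 CPM to 43.6, 46.2 and 58.7 CPM, and it was at -2.16 in SUM159PT and 2.11 in HS578T with siNRP1#3 (log2 fold changes, adjusted p = 0.017 and 0.00331). The remaining genes of this end were the protease ADAMTS15 (-2.51), CRISPLD2 (-2.43), DENND2A (-2.34), the surface protein LRRC15 (-2.30), the ribosome assembly factor NLE1 (-2.27), the peptide hormone APLN (-2.23) and the HSP70 co-chaperone BAG2 (-2.22), as log2 fold changes. Of the 12 genes at the lower end, 10 held a 7-base or 8-base seed match in the 3′ UTR, the exceptions being DENND2A and COL5A1. Of the 11 genes at the upper end that had a 3′ UTR sequence, 2 did, CSF3 and EGR1. Over all genes tested with a 3′ UTR sequence, 19.6% held a match, near the share at the upper end.

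**Figure D3:**
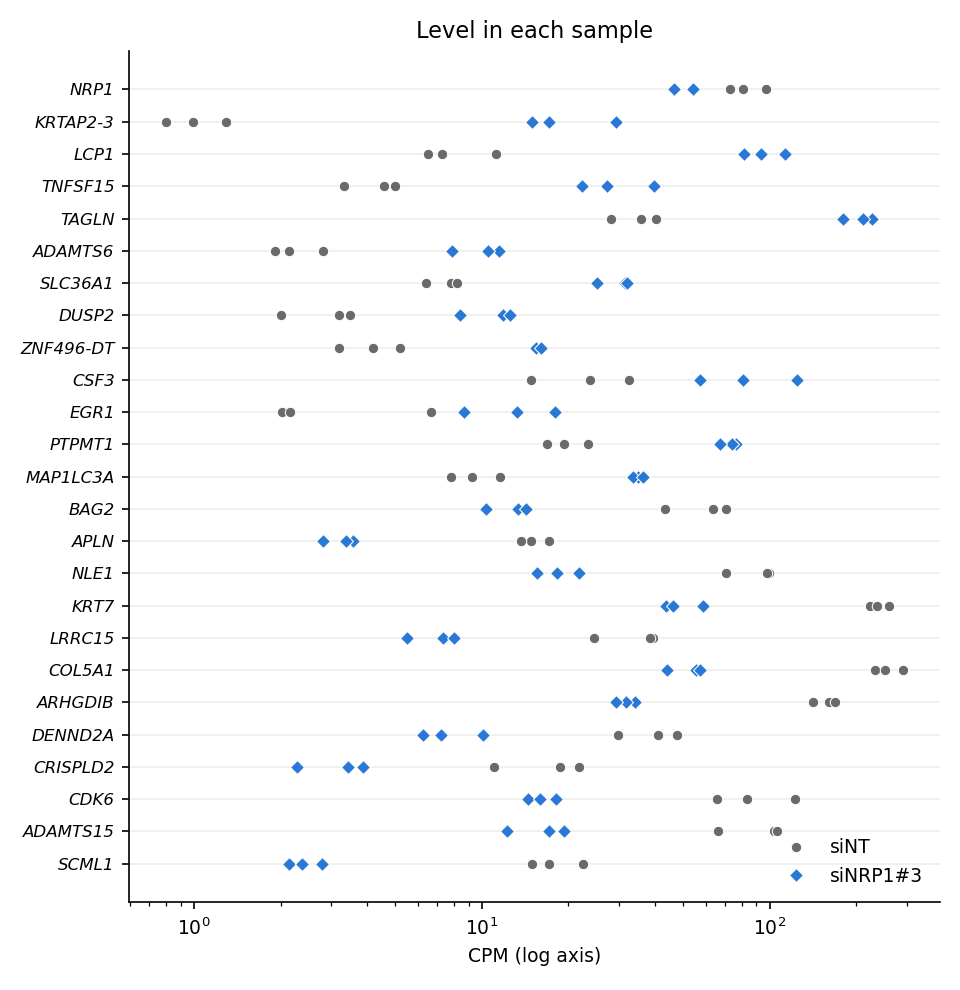
CPM (log axis) of NRP1 and of the 12 highest and 12 lowest genes in each of the 3 siNT (grey circles) and 3 siNRP1#3 (blue diamonds) samples. The 24 genes at the ends were chosen for groups that do not overlap, and NRP1 lies from 46.5 to 97.1 CPM, with its 3 siNRP1#3 samples below the 3 siNT samples.

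Seed matches were then counted over all genes. Of 13713 genes tested with a 3′ UTR sequence (NRP1 left out), 17.1% were called lower and 10.3% higher, with a median log2 fold change of -0.05. The 559 genes with an 8mer had a median of -0.36, and 40.4% of them were called lower and 5.72% higher. Genes whose best match was 7 bases long lay between, with medians of -0.26 for both kinds of match and 30.7% (7mer-m8, bases 2 to 8) and 29.8% (7mer-A1, bases 2 to 7 followed by A) called lower. The 11028 genes without a match had a median near 0 (-0.0032), with 13.4% lower and 11.5% higher. Other seeds were counted in the same way in this comparison. Genes with an 8mer of the siNRP1#5 guide, which these cells did not receive, had a median of -0.16 with 24.1% lower, against 16% without a match of that seed. Genes with an 8mer of the siNRP1#3 passenger strand had a median of -0.19 with 22.7% lower, against 15.9%.

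The share called lower was larger with more sites. It was 13.4% with no site, 30.8% with 1, 35.3% with 2 and 41.2% with 3 or more, and the medians were -0.0032, -0.25, -0.32 and -0.40. Genes with more sites also had longer 3′ UTRs, with a median length of 1021 bases without a site and 6646 bases with 3 or more. With the genes split into 3 parts of near-equal size by 3′ UTR length, the median in the shortest (50 to 737 bases) was -0.69 for the 32 genes with an 8mer and 0.09 for the 4383 without a match. In the middle part the medians were -0.46 and -0.03, and in the longest -0.30 and -0.10. Seen from the calls, 37.0% of the genes called lower held a match, against 10.7% of those called higher and 16.7% of those not called, so that most genes called lower held none.

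The same seed classes were measured in other comparisons. In SUM159PT, where 8.66% of 20067 genes were called for siNRP1#3 (3.16% higher, 5.5% lower), genes with an 8mer had a median log2 fold change of -0.28 and 18.9% of them were lower, against 5.06% of genes without a match. In HS578T, with 4.65% of genes called (2.31% higher, 2.34% lower), the 8mer median was -0.12 and 6.46% were lower, against 2.09% without a match. For shNRP1#3 in MDA-MB-231, with 3.65% of genes called (1.46% higher, 2.19% lower), the 8mer median was -0.02, and so was that of genes without a match. Of the 8mer genes 4.11% were lower and 2.15% higher there, against 2.94% and 1.41% without a match. For siNRP1#5 in MDA-MB-231, which shares the siNT samples, genes with an 8mer of siNRP1#3 had a median of -0.06 and 21.1% of them were lower, against 16.2% without a match. Genes with an 8mer of siNRP1#5's own guide had a median of -0.57 there, with 51.8% lower.

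**Figure D4:**
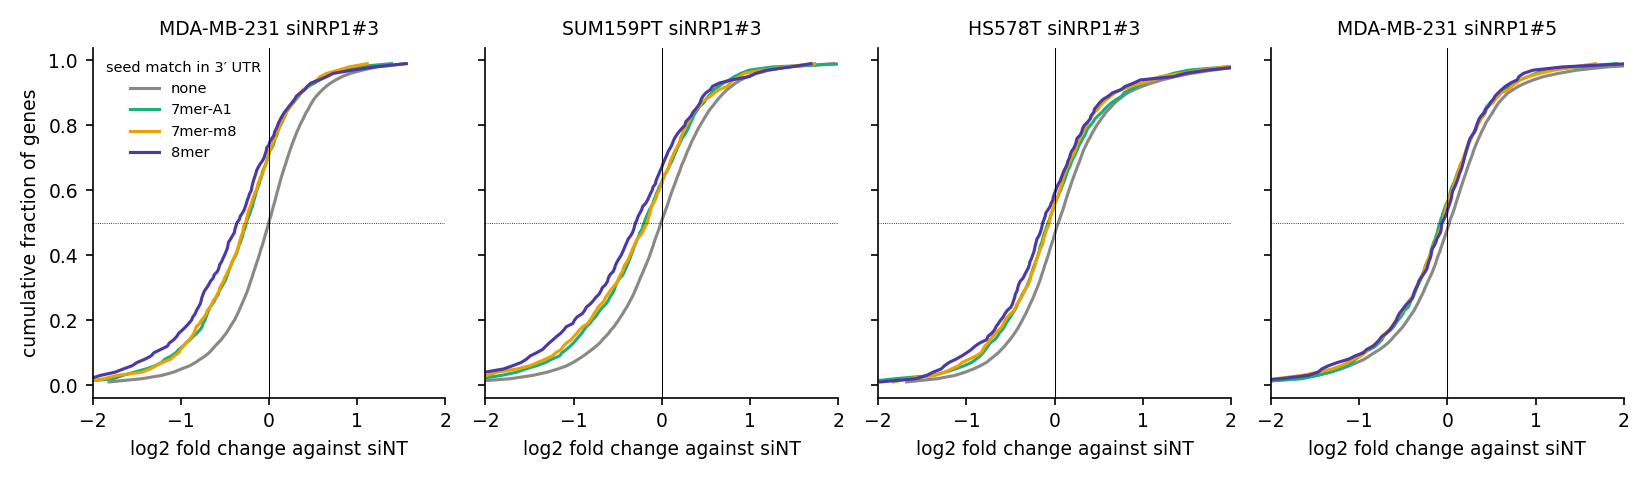
Cumulative fraction of genes by log2 fold change against siNT, for genes without a siNRP1#3 seed match in the 3′ UTR (grey) and with a 7mer-A1, 7mer-m8 or 8mer match. Panels are siNRP1#3 in 3 cell lines and siNRP1#5 in MDA-MB-231, and the 8mer curve crosses the midline at -0.36 in MDA-MB-231 siNRP1#3, -0.28 in SUM159PT, -0.12 in HS578T and -0.06 with siNRP1#5.

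The 6 genes whose sites are printed above cover several cell functions. CTNNB1 (β-catenin), the core of Wnt signalling and of adherens junctions, was at 430, 474 and 496 CPM in siNT and 125, 157 and 158 CPM in siNRP1#3 (log2 fold change -1.67, SE 0.11, adjusted p = 5.95e-09). GNAI2, an inhibitory G protein subunit, was at 888, 922 and 901 CPM in siNT and 258, 227 and 283 CPM in siNRP1#3 (-1.82, SE 0.13, adjusted p = 3.12e-08). COX10, needed for the haem of cytochrome oxidase, was at 40.7, 44.0 and 40.8 CPM in siNT and 9.82, 10.7 and 10.0 CPM in siNRP1#3 (-2.04, SE 0.12, adjusted p = 4.58e-09). The group means of these 3 genes were 3.18-fold, 3.53-fold and 4.10-fold lower. The 6 genes were chosen for small p-values in these same samples, so the separation of their groups is not a result.

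NELFCD, a subunit of the complex that pauses RNA polymerase II, fell by 1.65 on the log2 scale, and the mitotic kinase AURKA fell by 1.50. COX10, NELFCD, CTNNB1 and GNAI2 also passed the test for siNRP1#3 in SUM159PT, where their log2 fold changes were -1.76, -1.91, -2.01 and -2.12, and in HS578T, where they were -1.25, -1.30, -1.54 and -1.42. For shNRP1#3 the same 4 genes were at 0.10, -0.12, -0.14 and 0.12, with adjusted p-values from 0.572 to 0.741. AURKA was at -2.10 in SUM159PT (adjusted p = 0.012), -1.48 in HS578T (0.0511) and 0.02 with shNRP1#3 (0.956). APLN was at -2.18 in SUM159PT (adjusted p = 0.0376) and -1.44 in HS578T (0.102), and it also fell with shNRP1#3 (-0.75, adjusted p = 0.0114). With siNRP1#5 against the same siNT samples APLN rose (0.87, adjusted p = 0.000462).

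Transcripts that pair with most of the siRNA were also sought. Outside NRP1, only the transcript tagged as canonical in the annotation was searched for each gene, so other isoforms are not covered. No gene tested had a canonical transcript that matched the 19 bases with 0 or 1 mismatch, and 1 gene had 2 mismatches. This was PLK4, at 23.1 CPM in siNT and 18.1 CPM in siNRP1#3 (log2 fold change -0.35, adjusted p = 0.392). None of the 8 genes with 3 mismatches was called, and the smallest adjusted p among them was 0.0506, for ITIH4. Of 151 genes with 4 mismatches, 35 were called lower (23.2%) and 10 higher. Of 1132 genes with 5 mismatches 20.6% were lower, and of all genes tested 14.3%. NLE1 and BAG2, of the 12 lowest genes, were among those lower with 4 mismatches. Both also held a seed match in the 3′ UTR.

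Shares of the gene lists described next stand beside 14.3% lower and 11.4% higher over all genes, and 16.9% and 10.4% over protein-coding genes. Of 11 semaphorin and VEGF ligands tested, 2 fell, 1 rose and 8 did not pass the test (27.3% called, against 25.7% of all genes), with a median log2 fold change of -0.38 against -0.0052 over all genes tested. The median was -0.60 without siNRP1#3 replicate 3. VEGFC, a growth factor of lymphatic vessels, rose from 22.5, 23.1 and 21.6 CPM to 35.9, 35.3 and 31.6 CPM (0.61, adjusted p = 0.00125). SEMA3G fell by 1.91 from a low level (1.60 ± 0.287 CPM in siNT). SEMA3F, at -0.74, had an adjusted p of 0.0476 that became 0.06, 0.245, 0.124 and 0.166 without siNT replicate 1, siNT replicate 3, siNRP1#3 replicate 1 and siNRP1#3 replicate 2, which left 1 ligand called lower. VEGFA was at 127, 152 and 219 CPM in siNT and 91.3, 103 and 188 CPM in siNRP1#3, with overlapping groups (adjusted p = 0.427).

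Of 14 co-receptors and adaptors, 4 fell (28.6%) and 1 rose (7.14%), with a median of -0.36 that was -0.14 without siNT replicate 3. NRP2, the paralogue of NRP1, fell 3.16-fold, from 43.2, 40.2 and 46.8 CPM to 12.2, 12.6 and 16.5 CPM (log2 fold change -1.66, SE 0.22, adjusted p = 3.47e-05), and its 3′ UTR held 3 seed matches. L1CAM, an adhesion molecule that binds NRP1, fell 2.71-fold, from 188, 185 and 220.1 CPM to 67.8, 59.4 and 91.8 CPM. The semaphorin receptors PLXNA1 (-1.03) and PLXND1 (-0.63) fell, but without siNRP1#3 replicate 1 neither passed (adjusted p = 0.0513 and 0.0583), which left 2 called lower, and PLXND1 also did not without siNT replicate 3 (0.0576) or siNRP1#3 replicate 2 (0.0801). GIPC1, the adaptor that binds the cytoplasmic tail of NRP1, rose by 0.46, and 0 members were called higher without siNT replicate 1, siNT replicate 3 or siNRP1#3 replicate 1.

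Of 18 receptor tyrosine kinases and TGF-β receptors, 9 fell (50%) and 2 rose (11.1%, median -0.40), and 5 of the 9 held a seed match. EGFR fell from 142, 121 and 124 CPM to 55.9, 58.0 and 72.2 CPM (log2 fold change -1.06, SE 0.14, adjusted p = 2.85e-05). TGFBR3 (betaglycan) fell by 1.90 and IGF1R by 0.76. MET, the receptor of hepatocyte growth factor, rose from 38.1, 28.1 and 34.0 CPM to 74.0, 70.5 and 75.8 CPM (1.14, SE 0.17, adjusted p = 7.01e-05), with no overlap. It was the one receptor called higher without siNT replicate 1, siNT replicate 2, siNRP1#3 replicate 1 or siNRP1#3 replicate 3. Among 27 MAPK feedback and target genes, 5 rose (18.5%) and 2 fell (7.41%, median 0.13). SPRY4, an inhibitor of receptor tyrosine kinase signalling, rose from 47.4, 39.4 and 43.5 CPM to 104, 98.5 and 135 CPM, while the transcription factor ETV4 fell by 1.09 and the EGFR ligand TGFA by 1.20. The count of those that rose was 3 without siNT replicate 2 and 3 without siNRP1#3 replicate 1, and 4 fell without siNT replicate 3.

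Matrix and adhesion genes were called lower more often than higher. Of 27 collagens and matrix glycoproteins, 9 fell (33.3%) and 0 rose. Their median of -0.63 was -0.23 without siNT replicate 3 and -0.40 with a replicate block. THBS1 (thrombospondin 1) fell 3.78-fold, from 631, 824 and 775 CPM to 150.1, 204 and 235 CPM (log2 fold change -1.92, SE 0.17, adjusted p = 3.77e-07), and the basement membrane chains COL4A1 and COL4A2 fell by 0.88 and 0.79. Only FBN1 (fibrillin 1, -0.92) of the 9 held a seed match. Without a filter on low counts 16 fell, and without siNT replicate 3 1 rose.

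Of 21 integrins and laminins, 7 fell (33.3%) and 2 rose (9.52%, median -0.44). The laminin receptor chain ITGA6 fell from 251, 231 and 265 CPM to 107, 112 and 110.1 CPM (-1.18, SE 0.12, adjusted p = 1.54e-06), whereas the laminin chain LAMB3 rose by 0.72. Of the members, 1 rose without siNT replicate 2, siNT replicate 3, siNRP1#3 replicate 1 or siNRP1#3 replicate 3. Of 18 EMT and claudin-low genes, 5 fell (27.8%) and 0 rose (median -0.28), with 1 called higher without siNT replicate 3. VIM (vimentin) fell from 3102, 3321 and 3019 CPM to 1951, 1741 and 1950.2 CPM (-0.74, SE 0.13, adjusted p = 0.000382), and the repressor SNAI1 fell by 1.05. The epithelial cadherin CDH1, close to silent in these cells, was at 0.825, 1.31 and 1.75 CPM in siNT and lower, at 0.045, 0.127 and 0.0959 CPM, in siNRP1#3 (adjusted p = 2.09e-05).

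Proteases and their inhibitors split. Of 17 plasminogen activators, matrix metalloproteinases (MMPs) and inhibitors, 5 rose (29.4%) and 4 fell (23.5%), with a median of 0.23 that was 0.41 without siNT replicate 3. Those that rose were the protease genes MMP1, MMP10 and PLAU (urokinase), its receptor PLAUR, and the urokinase inhibitor SERPINB2. MMP1, interstitial collagenase, was at 75.4, 52.3 and 56.2 CPM in siNT and 241, 155 and 171 CPM in siNRP1#3 (1.63, SE 0.20, adjusted p = 1.15e-05). Those that fell were the MMP inhibitors TIMP2 (-1.18), TIMP3 (-0.89) and TIMP4 (-1.20) and the protease MMP16 (-1.04). TIMP2 was at 581, 587 and 695 CPM in siNT and 258, 264 and 299 CPM in siNRP1#3.

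Interferon-stimulated genes were called lower more often than higher. Of 34 tested, 15 fell (44.1%) and 3 rose (8.82%, median -0.45), and 9 fell without siNT replicate 2. IFIT1, an antiviral protein that binds foreign RNA ends, fell from 55.6, 65.4 and 48.5 CPM to 11.1, 15.3 and 12.5 CPM (-2.12, SE 0.22, adjusted p = 1.67e-06). IFIT2 (-1.65), HERC6 (-1.88) and OASL (-1.36) fell with it. The 3 that rose, IRF9 (0.86), STAT2 (0.75) and IRF7 (0.56), encode transcription factors of the interferon response. Of the 15, 3 held a seed match. Of 17 MHC class I and antigen processing genes 1 fell, the peptide-trimming ERAP2 (-1.15), and 2 fell without siNT replicate 1. Of 27 inflammatory cytokines and NF-κB targets, 3 rose and 3 fell (11.1% each, near the shares of all genes, median 0.07), with IL11 at 0.80 and CCL2 at -1.94. The count of those that rose was 1 without siNT replicate 2 and 1 without siNRP1#3 replicate 1.

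Cell cycle genes moved in part. Of 15 G1 cyclins and CDK inhibitors, 4 fell (26.7%) and 2 rose (13.3%), with a median of -0.24 (-0.42 without siNRP1#3 replicate 2 and -0.15 without siNRP1#3 replicate 3). CDK6 was the lowest and CCND3 (cyclin D3) was at 0.74, and 1 rose without siNT replicate 1, siNT replicate 2 or siNRP1#3 replicate 3. Of 28 G2/M genes, 7 fell (25%) and 0 rose, with a median of -0.28 (-0.11 without siNT replicate 1 and -0.16 without siNRP1#3 replicate 3), led by AURKA, with CDC25C at -0.82 and FOXM1 at -0.50, and 4 fell without siNRP1#3 replicate 1 or without siNRP1#3 replicate 3. Of 27 DNA replication genes, 24 did not pass the test (median -0.0014).

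In metabolism, 4 of 25 cholesterol synthesis genes fell (16%, near the share of all genes) and 1 rose (4%), with a median of -0.16 (-0.06, -0.31 and -0.26 without siNT replicate 2, siNT replicate 3 and siNRP1#3 replicate 2) and with 0 rising without siNT replicate 1, siNT replicate 2 or siNRP1#3 replicate 1. EBP, a sterol isomerase, fell by 1.50, and 3 of the 4 held a seed match. Fatty acid synthesis genes ACLY (-0.65), ELOVL6 (-0.76) and SCD (-0.90) were the 3 of 12 called, all lower (median -0.29), though SCD did not pass with any of siNT replicates 1 and 2 or the siNRP1#3 replicates left out (adjusted p from 0.056 to 0.0943). Of 26 glycolysis and hypoxia genes, 4 rose and 4 fell (15.4% each, near the shares of all genes, median -0.11), among them the glucose transporters SLC2A3 (1.10) and SLC2A1 (-0.84). Those that rose numbered 1 without siNT replicate 1, 1 without siNT replicate 2 and 2 without siNRP1#3 replicate 2. Of 16 NRF2 target genes, 6 fell (37.5%) and 0 rose (median -0.24), with the quinone reductase NQO1 at -0.70, and 3 fell without siNT replicate 2.

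Of 25 ATF4 and unfolded protein response genes, 4 rose (16%) and 0 fell (median 0.09), with SESN2 at 0.93. The count was 1 without siNT replicate 1 or siNRP1#3 replicate 3 and 2 with any other library left out, while 2 fell without siNT replicate 3 and 1 without siNRP1#3 replicate 3. Of 28 YAP/TEAD and SRF targets, 6 rose (21.4%) and 7 fell (25%, median -0.03). The myosin light chain MYL9 (0.91), ACTN1 (0.43) and CCN2 (0.73) rose with TAGLN, and TPM1 (-0.74) and ACTB (-0.45) fell, while 4 members fell without siNT replicate 1 or siNRP1#3 replicate 2 and 3 without siNT replicate 2 or siNRP1#3 replicate 3. Of 13 heat shock chaperones 10 did not pass the test, with a median of 0.16 that ranged from 0.0039 to 0.32 with 1 library left out. Of 13 mitochondrially encoded genes 12 did not pass, with a median of -0.36 that was -0.11 without siNT replicate 3. Of these genes 1 fell, 4 without siNT replicate 1, 2 without siNRP1#3 replicate 3, 7 without a filter on low counts and 0 without siNT replicate 3, siNRP1#3 replicate 1 or siNRP1#3 replicate 2.

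Of 13 genes of the RNA interference machinery, 4 fell (30.8%) and 0 rose (median -0.18), with 1 called higher without siNT replicate 2. DICER1, the nuclease that makes miRNAs, fell 4.65-fold, from 64.7, 52.7 and 37.4 CPM to 10.4, 12.0 and 10.9 CPM (log2 fold change -2.22, SE 0.24, adjusted p = 4.36e-06). The siRNA groups did not overlap. TNRC6C fell by 1.10, XPO5 by 0.43 and PRKRA by 0.39, and all but TNRC6C held a seed match. DICER1 was also lower with siNRP1#5 against the same siNT samples (-1.68, adjusted p = 3.73e-05) and with siNRP1#3 in SUM159PT (-1.68, adjusted p = 0.00266), and was at -0.83 in HS578T (adjusted p = 0.179). With shNRP1#3 against shNT in MDA-MB-231 it was at 0.0066 (adjusted p = 0.994).

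**Figure D5:**
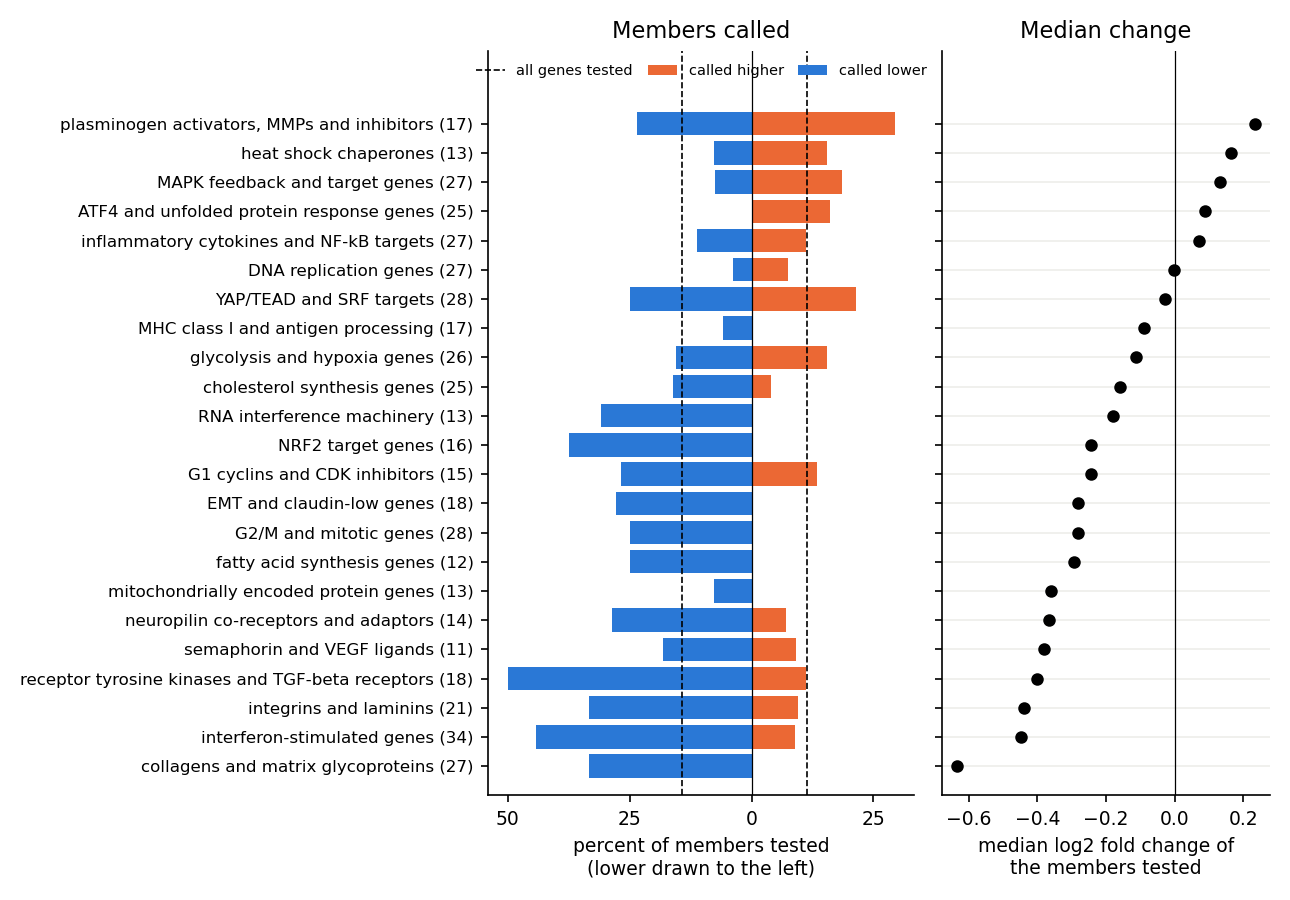
Members of 23 gene lists called higher (orange, right) or lower (blue, left) in siNRP1#3, as percent of the members tested (number in brackets), and the median log2 fold change of those members. Dashed lines give 11.4% and 14.3%, the shares of all genes tested. Medians run from -0.63 for collagens to 0.23 for plasminogen activators and MMPs.

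Genes called in MDA-MB-231 were followed into the samples of the other lines. Genes called lower had a median log2 fold change of -0.61 in SUM159PT, where 26.4% were called lower, against 5.93% of all genes tested in both lines. In HS578T the median was -0.30 with 8.48% lower, against 2.25%. Genes called higher had medians of 0.48 and 0.32, with 14% and 7.61% higher there, against 2.94 and 2.3%. For shNRP1#3 in MDA-MB-231 the medians were -0.03 and 0.03, with 4.33% of the first lower and 2.1% of the second higher, against 2.19 and 1.46%. Across genes, log2 fold changes of siNRP1#3 in MDA-MB-231 correlated with those in SUM159PT (Pearson r = 0.43, 17206 genes), HS578T (r = 0.27, 16986 genes) and with shNRP1#3 (r = 0.05, 18800 genes), where genes are not independent replicates and share level and length within each comparison.

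Differences between these effects were tested over all genes and are given for NRP1 and the 6 genes with the largest changes at each end. In the interaction test over all 52 samples, 0.384% of 23416 genes differed between MDA-MB-231 and SUM159PT and 1.48% between MDA-MB-231 and HS578T. CDK6 was the one of the 13 genes that differed from HS578T (difference of log2 fold changes -1.98, SE 0.46, adjusted p = 0.0152), and none differed from SUM159PT. Some named genes outside the 13, picked here after their values were seen, also differed. Against HS578T these included COL5A1 (-2.18, adjusted p = 0.0028) and TPM1 (-2.23, adjusted p = 0.000221), while THBS1 did not pass (-2.30, adjusted p = 0.0914). FBN1 differed from SUM159PT (-1.76, adjusted p = 0.0162). The difference for NRP1 was 1.38 (SE 0.35) against SUM159PT, where it was at -2.09, with an adjusted p of 0.0646, and 0.48 (SE 0.35) against HS578T, with an adjusted p of 0.627.

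Against shNRP1#3, which differs in delivery, selection, time and sequence, 14.4% of genes had a different effect. In counts, NRP1 fell less with siNRP1#3 than with shNRP1#3 (-1.48), by a difference of 0.78 (SE 0.21, adjusted p = 0.0159). Of the other 12 genes, 10 differed, among them TAGLN, at 0.42 with the hairpin, and SCML1, at -0.61. These 12 were chosen for large siNRP1#3 changes in the same samples, which favours such a difference. LCP1 was at 2.87 with the hairpin (difference 0.65, SE 0.27, adjusted p = 0.118), and ADAMTS6 was at 1.47 (difference 0.66, SE 0.56, adjusted p = 0.471). For siNRP1#5 and the same siNT samples, NRP1 was at -4.88, LCP1 at 0.37, TAGLN at 3.48, CDK6 at 0.43, COL5A1 at -0.89 and SCML1 at -0.55.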

How the data were processed

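Poly(A)-enriched stranded libraries were sequenced in paired ends. Per the study's methods and processing notes, reads were trimmed with Trim Galore 0.6.5, aligned with STAR 2.7.2b to GRCh38 and quantified with RSEM 1.3.3 against Ensembl 114/GENCODE 48. The authors deposited RSEM expected counts (estimated, not scaled), TPM and isoform percent (percent of the gene's TPM), and each of 260 sample columns was matched to a sample by its name (0 unmatched).

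Expected counts were rounded and fitted with edgeR 4.0.16 in R 4.3.3 over the 18 MDA-MB-231 samples in 6 groups (filterByExpr, TMM, robust quasi-likelihood), with Benjamini-Hochberg adjustment and a threshold of 0.05. On counts simulated for this comparison with 200 changed and 17550 unchanged genes, the test called 98% of genes lowered and 96% of genes raised 2-fold (50 genes each). The changed genes were drawn from those with a siNT mean of at least 5 CPM, so these shares do not cover genes at lower levels. The simulated spread followed the trend with expression level and not each gene's own spread, and far fewer genes changed than were called in the data. Replicate errors cover the spread between samples. Sites and 3′ UTRs (at least 50 bases) came from GENCODE 44 on the same build. Seed matches were sought in the canonical transcript of each protein-coding gene only, so other isoforms were not searched.

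Named genes are NRP1, the 12 highest and 12 lowest called genes with a mean of at least 5 CPM and no overlap, up to 4 per list with the smallest p, and 6 with an 8mer. PLK4, ITIH4, VEGFA, GIPC1, IGF1R, COL4A2, SLC2A3, STAT2, IRF7, IRF9, MMP10, MMP16, PLAU, PLAUR, SERPINB2, ACTN1, ACTB and CCN2 were added after their values were seen. Members and gene lists were chosen with earlier results of these data known. Some results are not reported here. The alternatives tried are given under the dependence on processing.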

Additional observations from a re-analysis of the deposited data

Results flagged for a closer look

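The siNRP1#3 effect on CDK6 in MDA-MB-231 was lower than that in HS578T by 1.98 on the log2 scale (-1.98, adjusted p = 0.0152 in the edgeR interaction test). CDK6 was at -2.48 in MDA-MB-231 and -0.52 in HS578T. It held 2 seed matches of 7 bases. For KRT7, chosen after its values were seen, the difference was -4.40 (adjusted p = 3.5e-05), since it was lower in MDA-MB-231 (-2.28) and higher in HS578T (2.11).

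Effects of siNRP1#3 and shNRP1#3 in MDA-MB-231 differed in the same kind of test for 11 of the 13 genes examined, against 14.4% of all genes tested. All but NRP1 were chosen for large siNRP1#3 changes in these same samples, which favours such a difference. The difference of log2 fold changes (siNRP1#3 minus shNRP1#3) was 0.78 for NRP1, 3.47 for KRTAP2-3, 2.65 for TNFSF15, 2.15 for TAGLN and 1.48 for SLC36A1. It was -2.29 for SCML1, -2.35 for ADAMTS15, -2.73 for CDK6, -2.40 for CRISPLD2, -1.62 for DENND2A and -2.42 for ARHGDIB. Adjusted p-values lay between 4.53e-07 (ARHGDIB) and 0.0159 (NRP1). The siRNA and the hairpin differ in sequence, delivery, selection and time of harvest, which cannot be told apart here.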

How the results depend on the processing

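The limits are 3 samples a group, siRNA groups that differ in more than their NRP1 target, and transcript values that rest on RSEM's division of reads. Under DESeq2, RLE size factors, no filter on low counts, a fit of the 6 samples alone and the replicate block, the genes called higher numbered 2284, 2166, 1925, 2102 and 2220, against 2143, and those called lower 2847, 2635, 2755, 2615 and 2724, against 2680. With 1 replicate left out they were 1331 to 1890 and 1938 to 2410, the 2 lowest counts of genes called higher being 1331 (without siNRP1#3 replicate 1) and 1395 (without siNT replicate 2). No gene called in the full fit changed sign under any of these 11 alternatives. NRP1 stayed below siNT in all of them, from -0.58 to -0.79, with adjusted p-values up to 0.0146. All 11 are fits of counts, and the fall of NRP1 depends on that scale. In gene TPM the means were 28.8 in siNT and 28.5 in siNRP1#3. NRP1 transmembrane transcripts ranged from -2.75 to -2.20 and soluble transcripts from 1.27 to 1.45 over their alternatives. Of genes with a seed match, 32.3% were called lower, 40.4% with 8mer matches only and 24% with a match of 7 or more bases anywhere in the transcript.

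Replicate numbers could not be taken as pairs of siNT and siNRP1#3 samples. Deviations of same-numbered samples correlated at 0.141, 0.039 and 0.234, and siNT replicate 2 correlated best with siNRP1#3 replicate 1 (0.061). Same-numbered siNT and siNRP1#5 samples correlated at 0.306, 0.302 and 0.389, and each siNT sample correlated best with its own number there, a hint from the data and not from the design. Under the replicate block NRP1 was at -0.70 (adjusted p = 0.00246), 2220 genes were called higher and 2724 lower, and the median of the collagens went from -0.63 to -0.40 and that of the integrins and laminins from -0.44 to -0.31.

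Among 115 single genes none turned direction under the 11 alternatives. Without a filter on low counts, more members were called in several lists (8 cholesterol synthesis genes and 4 ligands lower, 9 unfolded protein response genes and 9 cytokines higher). Calls were lost for 6 to 15 genes with a replicate left out and for at most 3 under the other alternatives.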
